A study of Macrobrachium nipponense with 6 samples.

Results

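The miRNA miR-276 was represented on the array by 18 of 2546 miRNA probes, taken by name: every probe whose name after the species prefix is miR-276, with or without a letter, an arm or a suffix. The family was picked with its values known: it was chosen by the signal of its 3p probes, among the brightest on the array, and by the wide spread of bmo-miR-276-3p between arrays. Levels and spread between arrays are therefore given as a description. The samples came from Macrobrachium nipponense, the oriental river prawn, and each combined gill, hepatopancreas, muscle and hemocytes. Normoxia samples were kept in water with 6.5 ± 0.2 mg O2 per L, and hypoxia samples in water with 2.0 ± 0.1 mg O2 per L, for 24 h. Each group had 3 samples with 1 single-colour array each, numbered within the group, and whether these are separate animals is not stated. The p-values therefore cover the spread among these samples, which may be technical. In pooled tissue, fewer cells of a type and less RNA per cell cannot be told apart.

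A miRNA is cut from a hairpin precursor whose 5p and 3p arms give different sequences, and it recognises its targets mainly through the seed, bases 2 to 8 from its 5′ end. miR-276 is an abundant arthropod miRNA studied mostly in insects. In the fruit fly it acts on a dopamine receptor gene in olfactory memory and on the clock gene timeless, and in mosquitoes it is linked to fat body metabolism during egg production. Those roles are not established by these data for the prawn, and genome positions were not used here.

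The target sequences are shown because many of the probes compared below differ by only 1 to 3 bases. The 3p probes that gave signal on the arrays follow, 5′ to 3′ as the array lists them, with bases 2 to 8 in capitals.
bmo-miR-276-3p: uAGGAACUucauaccgugcucu
aae-miR-276-3p: uAGGAACUucauaccgugcuc
ame-miR-276_L+3: aAAUAGGAacuucauaccgugcucu
tur-miR-276-3p: uAGGAACUucauaccaugcucg
isc-miR-276: uAGGAACUucauaccaugcuc
dme-miR-276b-3p: uAGGAACUuaauaccgugcucu
isc-miR-276_R+1_1ss11AG: uAGGAACUucguaccaugcucg

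The probe aae-miR-276-3p lacks the last base of bmo-miR-276-3p, and ame-miR-276_L+3 has 3 added bases at its 5′ end, which shifts the bases that count as seed. Counted from 1 at the 5′ end, tur-miR-276-3p differs from bmo-miR-276-3p by G16A and U22G, and isc-miR-276 lacks the last base of tur-miR-276-3p. Inside the sequence, dme-miR-276b-3p differs from bmo-miR-276-3p only by C10A, and isc-miR-276_R+1_1ss11AG differs from tur-miR-276-3p only by A11G. The 8 responding 5p probes vary at their ends, as these 6 show.
bmo-miR-276-5p: aGCGAGGUauagaguuccuacg
bmo-miR-276-5p_R-1: aGCGAGGUauagaguuccuac
cqu-miR-276-5p: aGCGAGGUauagaguuccu
dgr-miR-276b-5p: uAGCGAGGuauagaguuccuacg
dwi-miR-276b-5p: aAGCGAGGuauagaguuccuacg
dme-miR-276a-5p: cAGCGAGGuauagaguuccuacg

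The last 3 carry 1 added base before the 5′ end of bmo-miR-276-5p and differ from each other only there, by U1C, U1A or A1C. The probes bmo-miR-276-5p_R-1, aga-miR-276-5p and cqu-miR-276-5p end 1, 2 and 3 bases before bmo-miR-276-5p, and tca-miR-276-5p ends 2 bases after it. By seed, 7 of the 9 3p probes share AGGAACU, 5 of the 9 5p probes share GCGAGGU and 3 share AGCGAGG. Only 2 probes of other names, bmo-miR-2840 and tca-miR-2944a-5p, carry the 3p seed, and they were detected on 2 arrays and 1 array. No probe of another name came closer than 6 edits to a miR-276 probe.

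Signal is given as the spot's median brightness minus the local background, and detection required a height above it of over 3 standard deviations of the empty spots. The limit ranged from 27.8 on hypoxia 2 to 94.5 on normoxia 3, and the arrays had between 342 and 1001 detected probes. Of the 18 miR-276 probes, 14 were detected on normoxia 1, 17 on normoxia 2 and 15 on each other array. The other 3 had little or no signal. Both probes of miR-276c, a form named from another fruit fly, were detected on normoxia 2 alone, at 68.5 for dps-miR-276c and 78.9 for dps-mir-276c-p3_1ss3GA. These lie 10 and 11 edits from bmo-miR-276-3p, and the arm of dps-miR-276c was set only through a probe 8 edits away. The spider mite probe tur-miR-276-5p, 7 edits from bmo-miR-276-5p, was detected on no array.

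The 3p arm was bright. Its probe tur-miR-276-3p read 20457, 27668 and 23777 on the 3 normoxia arrays, in order, then 22056, 18576 and 23594 under hypoxia. They placed it between rank 4 and rank 7 among the 2546 probes on each array. The groups overlapped. The 18 probes held between 10.3% (hypoxia 1) and 14.3% (normoxia 3) of the summed signal of all miRNA probes, a share that counts 1 RNA once for each probe it binds. No spot of the family was near the top of the scanner's readings: the brightest was at 30914 before background subtraction, on normoxia 2, where the highest spot of the array was at 62122.

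The 5 brightest 3p probes gave like signals on most arrays. For this comparison, 2 spots with uneven brightness are left out, and they are described next. The highest signal was then 1.14, 1.17 and 1.04 times the lowest under normoxia. It was 1.10 and 1.06 times the lowest for hypoxia 1 and 2. On hypoxia 3 it was 1.87 times, with bmo-miR-276-3p at 27505, tur-miR-276-3p at 23594, isc-miR-276 at 20213, ame-miR-276_L+3 at 18848 and aae-miR-276-3p at 14725.

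**Figure D1:**
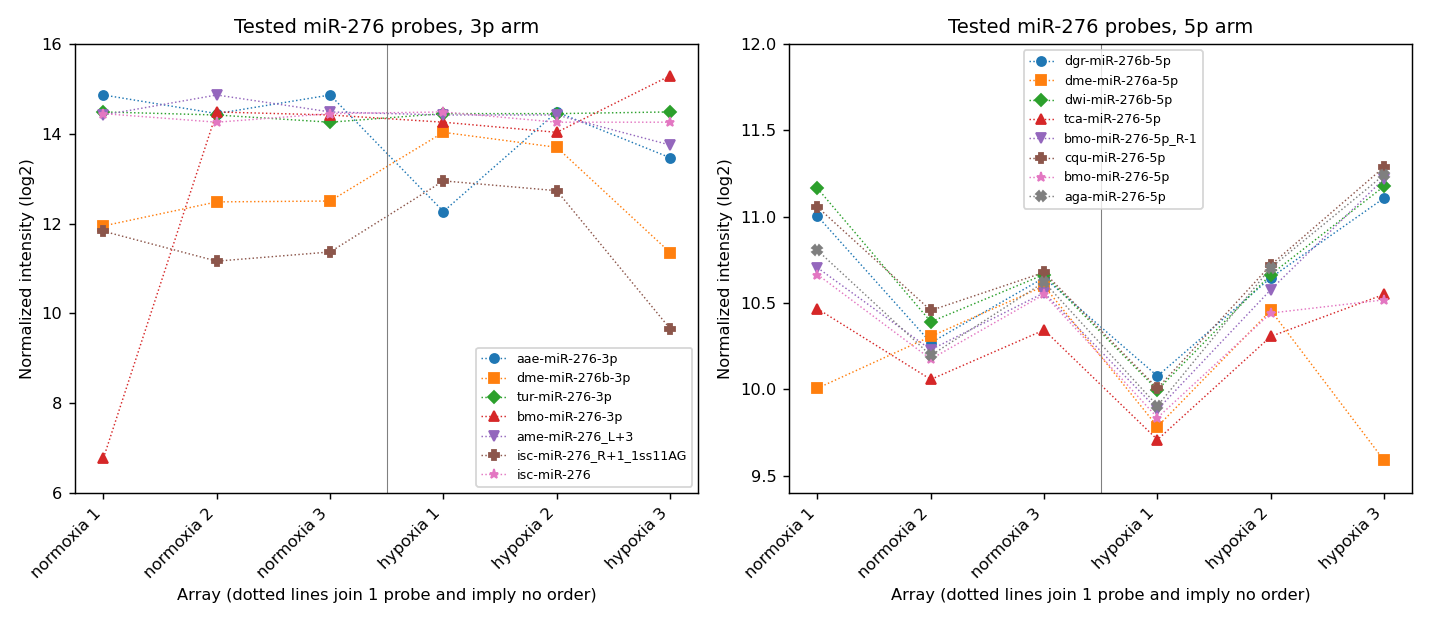
Normalized intensity (log2, vertical axis) of the 15 tested miR-276 probes on each of the 6 arrays, 7 of the 3p arm on the left and 8 of the 5p arm on the right, 1 point per spot, with dotted lines joining a probe's points; the vertical ranges of the panels differ. The point of bmo-miR-276-3p on normoxia 1, at 6.78, was not above the detection limit, and dme-miR-276b-3p and isc-miR-276_R+1_1ss11AG were higher on hypoxia 1 and 2 and lower on hypoxia 3 than on every normoxia array.

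The probe bmo-miR-276-3p had the widest spread of all tested probes. It read 34.7 on normoxia 1, not above the detection limit of 35.6, and 28783 and 24047 on normoxia 2 and 3. On hypoxia 1 to 3 it read 20212, 17622 and 27505. Normoxia 1 thus stood apart, far below the other 5 values. On normoxia 1 itself, aae-miR-276-3p, which lacks only its last base, read 21876, and ame-miR-276_L+3, which contains it whole, read 19176. After normalization bmo-miR-276-3p spanned 8.52 (log2) over the 6 arrays, where the median span of a tested probe was 1.34, and no tested probe spanned more. The authors' deposited table has the same pattern, with 26.1 on normoxia 1 and 18067 to 23165 elsewhere.

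The spot of bmo-miR-276-3p on normoxia 1 was also uneven. The deposited standard deviation of the brightness within a spot was 36.2% of the spot's median there, and 0.787% to 1.55% on the 5 other arrays. The 16 other undetected miR-276 spots, all of probes that were dim on nearly every array, lay between 3.21% and 10.9%. Its neighbours on the array did not share the dip, though only 2 of the 5 adjoining miRNA probes were detected on at least 4 arrays. The one that moved most was 0.46 (log2) below its own median over the arrays, against 7.56 for bmo-miR-276-3p. Directly above it, bmo-miR-276-5p_R-1 read 1219.7 on normoxia 1, within its range of 1049 to 2199 over the arrays.

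A second uneven spot belonged to aae-miR-276-3p. This probe read 21876, 28471 and 24832 under normoxia. Under hypoxia it read 5945, 18667 and 14725, so that every hypoxia value was below every normoxia value in this scale. After normalization the groups overlapped, at 14.86, 14.45 and 14.86 against 12.27, 14.49 and 13.47. On hypoxia 1, where it was lowest, the within-spot deviation was 39.4%, against 1.30% to 12.2% on the 5 other arrays. The low value on hypoxia 3 came from an even spot, at 1.54%. Diagonally adjoining it, api-bantam, a probe of the growth-linked miRNA bantam, also fell to 121 on hypoxia 1 from 5138 to 8407 elsewhere, with a within-spot deviation of 66.7%. Over the 8 adjoining miRNA spots, 6 of them of probes detected on at least 4 arrays, the median deviation was -0.10 (log2), so most neighbours did not share the dip.

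Of the 108 miR-276 spots, these were the only 2 with a within-spot deviation over 25%, a limit set after seeing the data. The next highest was 12.7%, for isc-miR-276 on normoxia 2. Over the whole array, 178 probes had a median signal over 1000. Among their 1068 spots, 55 lay more than 3 times below the probe's own median, and 17 of those 55 were uneven by this limit. Among the other 1013 spots, 1 was uneven. The deviation is a percent of the spot's own median, so a low median by itself raises the percent. The 2 counts are therefore not independent of how low spots were defined. The part of spot quality in the low readings was not tested beyond these counts.

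**Figure D2:**
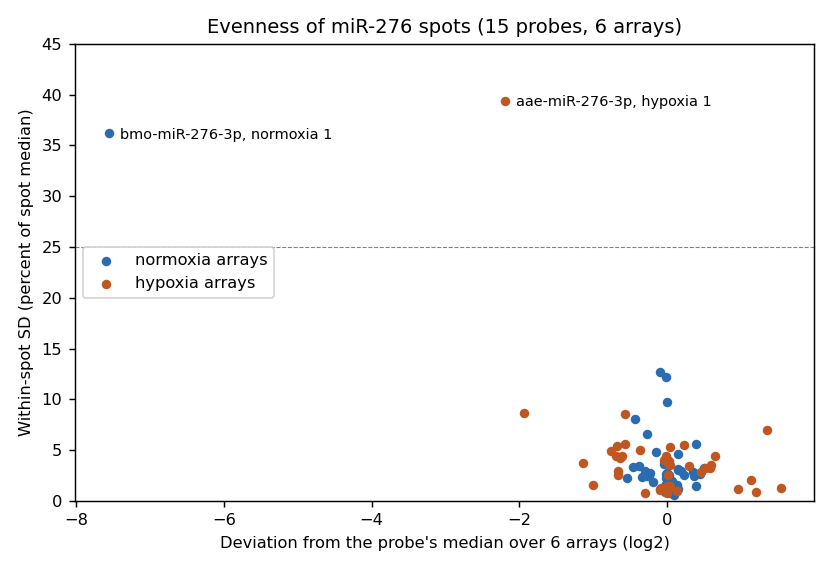
Within-spot standard deviation (percent of the spot's median, vertical axis) against the deviation of each spot from its probe's median over the 6 arrays (log2, horizontal axis) for the 15 tested miR-276 probes, 1 point per spot, normoxia arrays in blue and hypoxia arrays in orange. The dashed line marks 25%; only bmo-miR-276-3p on normoxia 1, at 36.2%, and aae-miR-276-3p on hypoxia 1, at 39.4%, lie above it.

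The 2 probes with a single substitution in the middle of the 3p sequence were both highest on hypoxia 1 and lowest on hypoxia 3. The probe dme-miR-276b-3p (C10A against bmo-miR-276-3p) read 2898, 7152 and 5141 on normoxia 1 to 3. On hypoxia 1 to 3 it read 16135, 9641 and 2541. The hypoxia group held both the highest values and the lowest. Likewise isc-miR-276_R+1_1ss11AG read 2623, 3445 and 2692 under normoxia. Under hypoxia it read 9226, 5500 and 468.5.

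Set against its partner on the same array, the first of these gave 24.8% and 21.4% of the signal of bmo-miR-276-3p on normoxia 2 and 3. On hypoxia 1 to 3 it gave 79.8%, 54.7% and 9.24%. No ratio was formed on normoxia 1, where bmo-miR-276-3p was not detected. For isc-miR-276_R+1_1ss11AG over tur-miR-276-3p the ratios were 12.8%, 12.5% and 11.3% under normoxia. Under hypoxia they were 41.8%, 29.6% and 1.99%. Both pairs, 1 over 5 arrays and 1 over 6, thus gave their highest ratio on hypoxia 1, the next on hypoxia 2 and the lowest on hypoxia 3. Probes bind with different strength, so only the change of such a ratio between arrays is described, and it shows that the partners changed unequally. Pairs that differ at an end also parted on hypoxia 3. There, ame-miR-276_L+3 gave 68.5% of bmo-miR-276-3p, against 102% to 107% on the 4 other arrays with a ratio. The probe isc-miR-276 gave 85.7% of tur-miR-276-3p there and 94.4% to 103.7% elsewhere. Against the same partner, from which it differs at the end and by G16A, aae-miR-276-3p gave 62.4% on hypoxia 3 from an even spot. Whether probes changed in the middle and at the ends differ was not tested.

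Calibration spots of the array also differed between the arrays. The median signal of the 88 spots named 3M was 1.67%, 2.89% and 1.46% of that of the 44 spots named 3P under normoxia. Under hypoxia it was 10.1%, 7.34% and 0.821%. The files do not say what these names stand for. On normoxia 3 and hypoxia 3 the 3M median, 92.0 and 53.8, was not above the detection limits of 94.5 and 77.0, so the order of those arrays by this ratio is not settled. Hypoxia 1 ranked first and hypoxia 2 second by this ratio, as by both miR-276 pairs. The part of what the calibration spots measure in the miR-276 ratios was not tested.

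**Figure D3:**
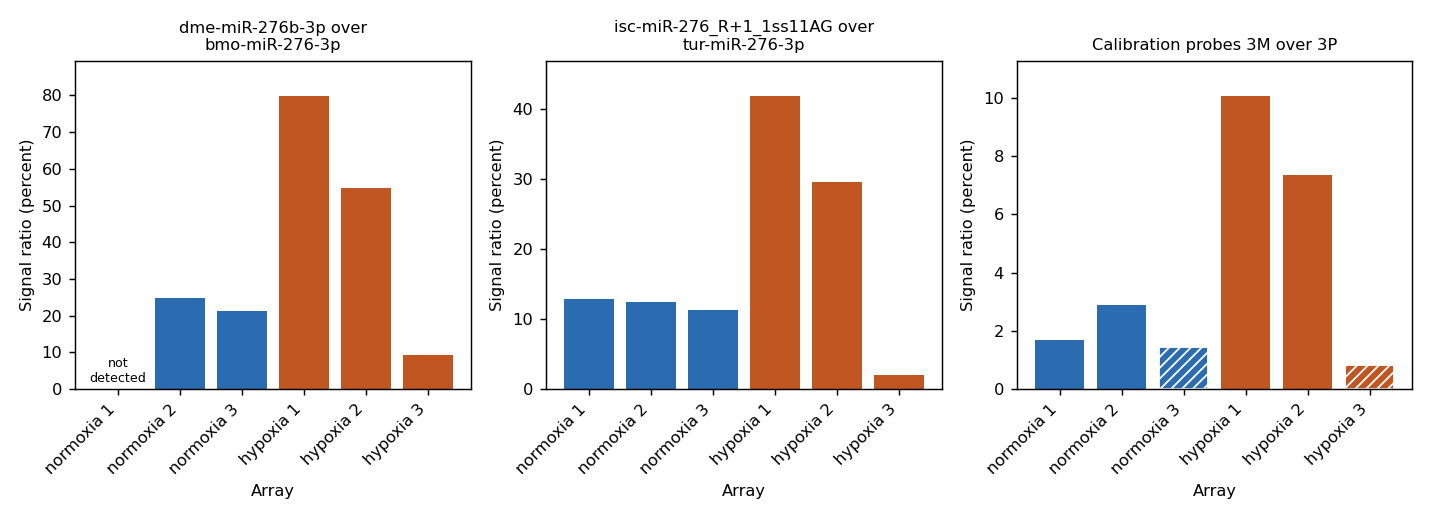
Signal of dme-miR-276b-3p as a percent of bmo-miR-276-3p (left), of isc-miR-276_R+1_1ss11AG as a percent of tur-miR-276-3p (middle) and of calibration spots 3M as a percent of 3P (right) on each array, normoxia in blue and hypoxia in orange, 1 value per bar. In all 3 panels hypoxia 1 is highest and hypoxia 2 next. In the left and middle panels hypoxia 3 is lowest, and hatched bars in the right panel mark a 3M median not above the detection limit. The left panel has no bar for normoxia 1, where bmo-miR-276-3p was not detected.

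The 5p arm, present on the array as sequences of 19 to 24 bases, gave signals well below those of the bright 3p probes. Its brightest tested probe, cqu-miR-276-5p, read 1403, 1958 and 1415 under normoxia and 1567, 1143 and 2347 under hypoxia. The highest and the lowest signal both came from hypoxia, on hypoxia 3 and hypoxia 2. After normalization the order of the arrays differed, with the lowest level on hypoxia 1, at 10.01 (log2). On that scale, 6 of the 7 other tested 5p probes followed cqu-miR-276-5p closely over the 6 arrays, with Pearson's r from 0.881 to 0.986. These values are a description, since the points share arrays and the probes share most of their sequence. The exception was dme-miR-276a-5p, at r = -0.19. In the 3p arm, by contrast, r with the brightest probe lay between -0.36 and -0.0067. That probe, tur-miR-276-3p, spanned only 0.23 (log2) after normalization, which leaves little to follow.

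The 3 probes that differ only in their first base parted on 2 arrays. Beginning with U, dgr-miR-276b-5p read 1394, 1742 and 1345 under normoxia and 1578, 1126 and 1873 under hypoxia. Beginning with A, dwi-miR-276b-5p stayed between 99.3% and 113% of it on every array. The probe beginning with C, dme-miR-276a-5p, read 690.4, 1759 and 1287 under normoxia and 1361, 974 and 409.6 under hypoxia. This was 101%, 95.7%, 86.2% and 86.5% of dgr-miR-276b-5p on normoxia 2 and 3 and hypoxia 1 and 2. On normoxia 1 it was 49.5% and on hypoxia 3 21.9%. Neither low spot was uneven, with within-spot deviations of 4.77% and 8.54%. The part of what the calibration spots measure in these drops was not tested.

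The 5p probes that differ at their 3′ end parted most on hypoxia 3. There, bmo-miR-276-5p read 1220.4, within its range of 965 to 1653 on the other arrays. Shorter by 1 base, bmo-miR-276-5p_R-1 read 2199 on hypoxia 3, which was 180% of bmo-miR-276-5p, against at most 109% on the other arrays. Shorter by 2 bases, aga-miR-276-5p gave 180% there and 101% to 118% elsewhere, and shorter by 3, cqu-miR-276-5p gave 192% and 111% to 120%. Longer by 2 bases, tca-miR-276-5p gave 101% and 85.8% to 94.8%. The rise on hypoxia 3 was not limited to probes with a changed 3′ end. With the 3′ end of bmo-miR-276-5p and 1 added 5′ base, dgr-miR-276b-5p and dwi-miR-276b-5p read 1873 and 2120 there. On the other arrays they read 1126 to 1742 and 1137 to 1839. Over the 8 tested 5p probes the highest signal was 5.73 times the lowest on hypoxia 3, 2.09 times on normoxia 1 and 1.20 to 1.35 times on the other 4 arrays. The lowest on hypoxia 3 and normoxia 1 was the first-base variant dme-miR-276a-5p, and over the other 7 probes the spread was 1.92 and 1.44 times. This contrast within 1 array has no replicate and was not tested.

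The oxygen comparison asked whether miR-276 differed after 24 h of low oxygen. Of its probes, 15 entered the fit over 339 probes, each with signal above the limit throughout 1 group or both. The probe bmo-miR-276-3p entered through the hypoxia arrays. None of the 15 passed (limma, adjusted p = 0.858 to 0.994), and none had an unadjusted p under 0.05. Over all 339 probes, 0.00% passed the adjusted test and 4.72% (16 probes) the unadjusted one. Without hypoxia 3 the unadjusted count was 63 and with array weights 73, and 2 miR-276 probes were among them in each. The groups overlapped for all 15 miR-276 probes, where 10.0% of all tested probes did not overlap. Above 0 lay 6 of the 15, and 41.6% of all tested probes. With single arrays left out that count was 4 to 10, and cyclic loess scaling gave 9. The median difference, hypoxia minus normoxia, was -0.05 (log2) in the family and -0.09 over all tested probes.

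For tur-miR-276-3p, the brightest on average, the normalized level under normoxia was 14.39 ± 0.12 (log2, SD, n = 3). Under hypoxia it was 14.46 ± 0.02. Its difference was 0.07 (95% interval -0.44 to 0.59; limma, adjusted p = 0.956), and its sign turned under each other scaling tried. For cqu-miR-276-5p the levels were 10.73 ± 0.30 and 10.67 ± 0.65, with a difference of -0.06 (-1.01 to 0.89). Quantile normalization gives a probe the value of its rank, so bright probes that trade places show the same few values.

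Differences of at least 2-fold were measured for 2 of the 15 probes, and for 7.96% of all tested probes. Both were those with an uneven spot. In bmo-miR-276-3p the difference was 2.63 (-2.49 to 7.76), with levels of 11.89 ± 4.43 in normoxia and 14.53 ± 0.67 in hypoxia. With the uneven spot treated as missing, which leaves 2 normoxia arrays, it was 0.08 (-1.07 to 1.22; limma, adjusted p = 0.973). In aae-miR-276-3p it was -1.32 (-2.70 to 0.07; adjusted p = 0.858), and -0.75 (-1.77 to 0.27; adjusted p = 0.873) without the uneven spot on hypoxia 1.

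**Figure D4:**
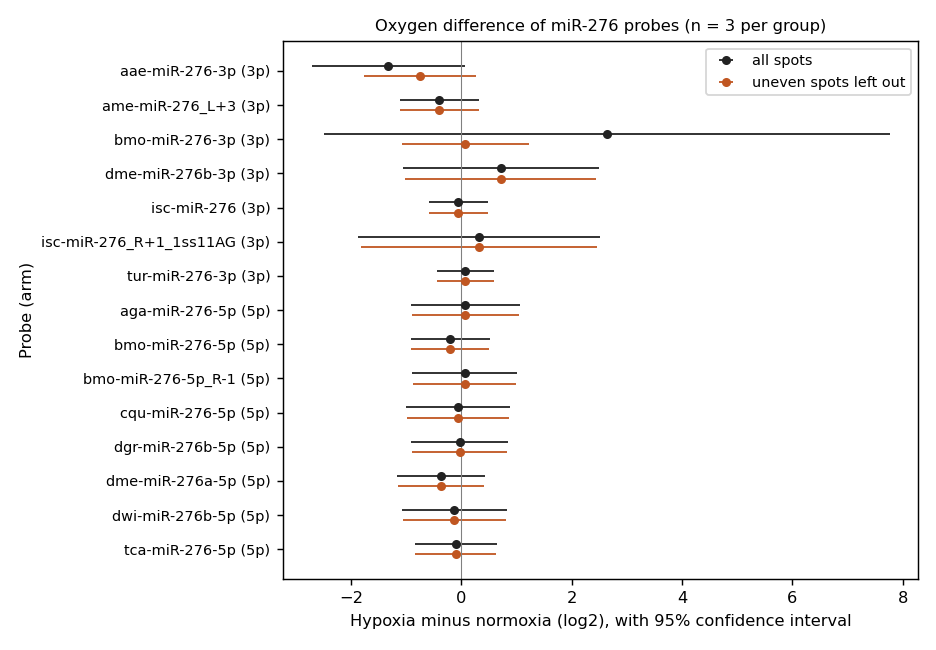
Difference between hypoxia and normoxia (log2, horizontal axis) with its 95% confidence interval for each of the 15 tested miR-276 probes, from all spots (black) and from a fit with the uneven spots of all probes treated as missing (orange), 2 of them in miR-276 probes, 3 arrays per group otherwise. Every interval includes 0, and bmo-miR-276-3p moves from 2.63 to 0.08.

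The probes with a substitution in the middle had the next largest positive differences, 0.72 (-1.05 to 2.49) for dme-miR-276b-3p and 0.33 (-1.86 to 2.52) for isc-miR-276_R+1_1ss11AG. Without hypoxia 3 they were 1.55 and 1.39, still not past the threshold (limma, adjusted p = 0.0798 and 0.105). Without hypoxia 1 they were 0.22 and -0.26, and without hypoxia 2 0.38 and -0.15, so the sign for isc-miR-276_R+1_1ss11AG depended on single arrays. The fit without hypoxia 3 keeps the 2 hypoxia arrays with the highest calibration ratio, so within it the oxygen groups and the calibration ratio cannot be told apart. The other 11 probes lay between -0.39 and 0.08.

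The balance of the arms was compared by subtracting the log2 level of cqu-miR-276-5p from that of tur-miR-276-3p on each array. The result was 3.43, 3.96 and 3.58 under normoxia and 4.44, 3.73 and 3.20 under hypoxia. On this normalized scale, hypoxia held the highest and the lowest value. By signal the balance was higher on normoxia 3 than on hypoxia 1, so the order of the arrays depends on the normalization. There tur-miR-276-3p read 23777 against 22056, and cqu-miR-276-5p 1415 against 1567. The normalized means were 3.66 ± 0.27 and 3.79 ± 0.62 (SD, n = 3), a difference of 0.13 (exact permutation test, two-sided p = 0.8, smallest possible 0.1). Over the means of all tested probes of each arm it was 0.38 (exact permutation test, p = 0.6). Those means include the 2 uneven spots. On normoxia 1, where bmo-miR-276-3p was not detected, the value was 1.95, against 3.47 and 3.18 on normoxia 2 and 3. Under hypoxia it was 3.94, 3.45 and 2.34. The sign of the 0.13 difference changed under other scalings and without hypoxia 1.

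Other miRNAs with roles near those of miR-276 were counted for comparison. Of 42 tested probes of circadian and memory miRNAs of the fly, 0 passed in either direction and 10 lay above 0, where 141 of all 339 tested probes did, with a median of -0.18 against -0.09 over all tested probes. The brightest examples were dme-let-7-5p at -0.14, ame-bantam at -0.05, bmo-miR-279a_R+3_1ss17CT at -0.14 and dme-miR-263a-5p at -0.08. Of 19 tested probes of miRNAs linked to the mosquito egg cycle, 0 passed and 12 lay above 0, against the same 141 of 339, with a median of 0.03; cqu-miR-305-5p was at -0.07, aga-miR-275_1ss13AT at -0.62 and dpu-miR-8_R-1 at 0.02. The 42 probes were of bantam, let-7, miR-263a, miR-263b, miR-279 and miR-92a, and no other of the 16 miRNAs listed had a tested probe. The 19 were of miR-275, miR-305 and miR-8, and no other of the 8 listed had a tested probe. Probes of 1 miRNA share most of their sequence, so these counts are not of independent measurements.

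The labelled muscle showed in miR-1, a muscle miRNA, with 3 of 9 probes tested, and in miR-133, with 2 of 6, while miR-206 had no probe. Of the 5 tested muscle probes, 0 passed and 3 lay above 0, where 141 of all 339 tested probes did. Their median was 0.41 (log2), against -0.09 over all tested probes. The 3 above 0 were the probes of miR-1, with dme-miR-1-3p at 0.41. Neither miR-133 probe lay above 0, with hme-miR-133 at -0.17. The 15 muscle probes summed to 8242 to 26107 in normoxia and 12614 to 35224 in hypoxia. Of the nerve markers, miR-124, miR-137 and miR-219 had no tested probe, and the 15 tested nerve probes were all miR-9 or miR-7. Of these, 0 passed and 10 lay above 0, against the same 141 of 339, with a median of 0.30 against -0.09. The part of the tissue mix in the miR-276 levels was not tested. The 70 nerve probes summed to 16871 to 36230 in normoxia and 19835 to 40563 in hypoxia. For gill, hepatopancreas and hemocytes no marker list was used.

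The probes whose pattern over the 6 arrays was most like that of cqu-miR-276-5p were dpu-miR-100_R-2 (Pearson's r = 0.978), dme-miR-10-3p (0.960), aae-miR-281-3p (0.945), tur-miR-71-5p_R+3 (0.940) and aae-miR-7_R+1 (0.939), taking 1 per miRNA. For tur-miR-276-3p they were isc-miR-1_1ss1TG (0.959), dpu-miR-315_R-2_1ss20AG (0.948), aae-miR-2a-3p (0.923), aae-miR-252-5p (0.892) and ame-miR-125 (0.863). As noted, tur-miR-276-3p spanned only 0.23 (log2) after normalization, which leaves little to follow, while isc-miR-1_1ss1TG spanned 1.85. All the r values here are the highest among all tested probes over 6 shared arrays, given as a description only.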

How the data were processed

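Per the labels, each sample was total RNA of combined prawn tissues, run with Cy3 on its own 1-colour array. Scanner tables deposited by the authors hold, per the file headers, the median intensity of each spot and the standard deviation within it, with no background correction. The authors' deposited value table holds intensity values that, judged from the values, are background subtracted and scaled between arrays. The method was not stated, and the table served as an alternative.

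Among the 3968 spots of an array, 2546 carried a miRNA probe each and 1130 were empty. Local background was the median of the 20 nearest empty spots. Values were corrected with normexp (limma 3.58.1 in R 4.3.3, offset 50), quantile normalized and put on the log2 scale. The comparison used lmFit and eBayes over 339 probes with Benjamini-Hochberg adjustment at 0.05, and the code was tested on simulated arrays. Arms came from the names or, without one, from the nearest named miR-276 probe. Any miR-276 probe detected at least once could be named, with the 4 brightest miRNAs of each list and the 5 most alike probes per arm. Members and lists were chosen with earlier results of these data known. Sequences are those of the scanner tables. Alternatives covered background, scaling, filters, weighting of arrays, leaving out uneven spots or single arrays, and a replicate block. The number of arrays limits the precision. Figures were drawn with matplotlib 3.10.9.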

Additional observations from a re-analysis of the deposited data

How the results depend on the processing

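The count of miR-276 probes past the threshold was 0 in the reported fit and under all 20 alternatives, one of which, leaving out uneven spots, was chosen after seeing the data. Over all tested probes the count was also 0, except 1 without hypoxia 3, so that single arrays left out gave 0 to 1. The smallest adjusted p of a miR-276 probe ranged from 0.0798 (without hypoxia 3) to 1.00 (no scaling). The replicate block left 0 probes past the threshold (limma, smallest adjusted p = 0.989). Arrays of the same number did not deviate alike (r = -0.25, -0.27 and -0.06 over the 339 probes). Since 0 of 6 correlated best with their own number, the numbers were not taken as pairs.

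The difference in arm balance, 0.13 (log2), turned to -0.35 after cyclic loess and to -0.26 in the authors' values. It turned to -0.19 both after 75th percentile scaling and unscaled. Over all tested probes of each arm it was 0.38, with the 2 uneven spots included. For the 0.13, leaving out 1 array at a time gave -0.19 (without hypoxia 1) to 0.43. Of the 15 probes, 6 kept their sign under each alternative run, 20 for 5 of them and 19 for bmo-miR-276-3p (0.08 to 3.93), which was not among the probes detected on all 6 arrays: these were also aae-miR-276-3p (-1.86 to -0.75), ame-miR-276_L+3, dme-miR-276a-5p, dme-miR-276b-3p (0.22 to 1.55) and isc-miR-276. The other 9 changed sign, in no case past the threshold. In the order 75th percentile, cyclic loess and authors' values, dgr-miR-276b-5p turned to 0.052, 0.10 and 0.094. With no scaling as the fourth, tur-miR-276-3p turned to -0.10, -0.22, -0.16 and -0.16, dwi-miR-276b-5p to 0.065, 0.11, 0.10 and 0.0096, and cqu-miR-276-5p to 0.082, 0.13, 0.10 and 0.026. Cyclic loess turned tca-miR-276-5p to 0.0014, and array weights turned bmo-miR-276-5p_R-1 to -0.0042. With single arrays left out, the ranges were -0.28 to 0.24 for dgr-miR-276b-5p, -0.41 to 0.18 for dwi-miR-276b-5p, -0.37 to 0.27 for cqu-miR-276-5p, -0.28 to 0.14 for tca-miR-276-5p, -0.34 to 0.017 for bmo-miR-276-5p, -0.27 to 0.40 for bmo-miR-276-5p_R-1, -0.24 to 0.43 for aga-miR-276-5p and -0.26 to 1.39 for isc-miR-276_R+1_1ss11AG. The cause was not tested.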
